A study of Mus musculus with 11 samples.

Results

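Interferon gamma is a cytokine of activated T cells, and the genes described here are classic targets of its receptor. The set held 10 named members in 3 functional groups: the transcription factor Irf1, 6 GTPases of the guanylate-binding (Gbp2, Gbp3) and immunity-related (Igtp, Irgm1, Irgm2, Iigp1) families, and 3 genes of antigen processing (the immunoproteasome subunits Psmb8 and Psmb9 and the peptide transporter Tap1). Members were the genes of these symbols in the array annotation, with every probe set listed under that symbol alone. Of the 10 members, 9 had a probe set and together had 14 probe sets, among 17097 genes and 45037 probe sets on the array. Tap1 was not analysed here, since no probe set was listed under its symbol.

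Transcript levels came from 11 arrays of perfect-match probe sets. Male NOD mice aged 16 weeks, a strain that develops a spontaneous autoimmune disease of the tear gland like that of Sjögren's syndrome, gave all cells, with no treatment named. The groups were effector regulatory CD4 T cells (LG_eTreg), effector conventional CD4 T cells (LG_eTconv) and PD1- ICOS- CD4 T cells (LG_naive) sorted from lacrimal gland, with 3 arrays each, and total CD8 (Spl_CD8) and total CD4 (Spl_CD4) T cells of the spleens of these mice, with 1 array each. The gate stated for both effector groups was the same, PD1high ICOShigh CD73low CD200low, so the stated gate does not say how they were parted. Foxp3, the regulatory T cell transcription factor, lay between 8.13 and 8.21 on the LG_eTreg arrays, between 3.61 and 4.85 on the LG_eTconv arrays and between 2.86 and 4.95 on the LG_naive arrays. Values are log2 signals throughout, so a difference of 1 is a doubling of signal. The labels do not say that the arrays of a group came from separate mice, so p-values here reflect only how far these arrays spread, part of which may be technical.

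Interferon gamma binds a receptor of the chains Ifngr1 and Ifngr2, which signals through the kinases Jak1 and Jak2. Target promoters carry gamma-activated sites, and one of the first targets, Irf1, binds interferon-stimulated response elements in others. Guanylate-binding proteins and immunity-related GTPases are known for cell-autonomous defence, in which they assemble on the vacuoles of intracellular parasites and bacteria. Psmb8 and Psmb9 replace the constitutive catalytic subunits Psmb5 and Psmb6 in the immunoproteasome, which favours peptides that fit MHC class I. Lymphocytes carry immunoproteasome at rest.

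The promoters of the members are shown as background on the 2 motifs named above. Whether promoter motifs bear on the differences between the cell groups below was not tested. RefSeq promoter entries (build GRCm38.p6, from 250 bases before to 50 bases after a start) were matched for 9 of the 10 members. Iigp1 had no entry, so its promoter was not searched. These entries come from the reference mouse strain and not from NOD. Gbp3 and Irf1 each had 2 annotated starts, and their windows and matches below are those of the first. Neither motif was found at the second. The first Gbp3 start lies inside the gene interval given for Gbp3 below. The windows below hold the 120 bases before the start, read 5′ to 3′ on the strand of the gene, with bases in capitals where they match the core of the interferon-stimulated response element (GAAA, any 2 bases, GAAA) or the gamma-activated site (TTCNNNGAA), each searched on both strands. Gbp2 (chr3:142620543-142620662) and Gbp3 (chr3:142559924-142560043) lie on the plus strand. Igtp (chr11:58199436-58199555), Irgm2 (chr11:58214857-58214976) and Irf1 (chr11:53769894-53770013) also read on the plus strand, and Irgm1 (chr11:48871421-48871540) reads on the minus strand. Psmb8 (chr17:34198075-34198194) reads on the plus strand and Psmb9 (chr17:34187331-34187450) on the minus strand.
Gbp2: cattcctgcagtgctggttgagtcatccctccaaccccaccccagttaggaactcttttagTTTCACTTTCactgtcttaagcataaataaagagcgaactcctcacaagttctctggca
Gbp3: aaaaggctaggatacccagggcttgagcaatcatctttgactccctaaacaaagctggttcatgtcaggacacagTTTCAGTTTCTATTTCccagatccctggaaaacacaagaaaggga
Irgm1: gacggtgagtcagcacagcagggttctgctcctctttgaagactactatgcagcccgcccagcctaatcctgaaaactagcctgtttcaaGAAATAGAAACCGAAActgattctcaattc
Igtp: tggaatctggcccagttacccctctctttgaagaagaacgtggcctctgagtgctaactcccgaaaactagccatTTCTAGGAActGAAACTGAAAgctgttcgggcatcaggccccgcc
Irgm2: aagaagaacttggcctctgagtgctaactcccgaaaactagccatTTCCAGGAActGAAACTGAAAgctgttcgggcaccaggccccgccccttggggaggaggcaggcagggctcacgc
Irf1: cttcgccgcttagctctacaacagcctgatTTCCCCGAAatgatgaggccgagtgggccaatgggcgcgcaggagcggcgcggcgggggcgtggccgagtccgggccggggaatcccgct
Psmb8: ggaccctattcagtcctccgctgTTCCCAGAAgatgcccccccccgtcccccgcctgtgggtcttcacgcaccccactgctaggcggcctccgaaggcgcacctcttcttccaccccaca
Psmb9: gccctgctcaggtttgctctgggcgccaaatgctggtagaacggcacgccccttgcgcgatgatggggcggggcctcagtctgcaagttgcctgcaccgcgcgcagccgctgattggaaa

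The response element core was found in the promoters of 5 of the 9 members, and all 5 were GTPases: Gbp2, Gbp3, Irgm1, Igtp and Irgm2. Of all 32851 promoters in the table, 3.44% held it. Such shares count promoters, while a member was counted where any of its starts matched. In Gbp3 and in Irgm1 it was found at 2 positions that overlap each other. The gamma-activated site was found in 4 of the 9 members, Igtp, Irgm2, Irf1 and Psmb8, against 8.30% of all promoters. Igtp and Irgm2 each held both motifs side by side, at −45 to −37 and −34 to −25 from the start in Igtp and at −75 to −67 and −64 to −55 in Irgm2. These genes lie 7384 bases apart on chromosome 11, and their promoters share an identical run of 61 bases, so they are not independent examples. Neither motif was found in the window of Psmb9, whose start lies 225 bases from that of Tap1 on the opposite strand of chromosome 17. A match describes letters in this window and not a bound site.

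**Figure D1:**
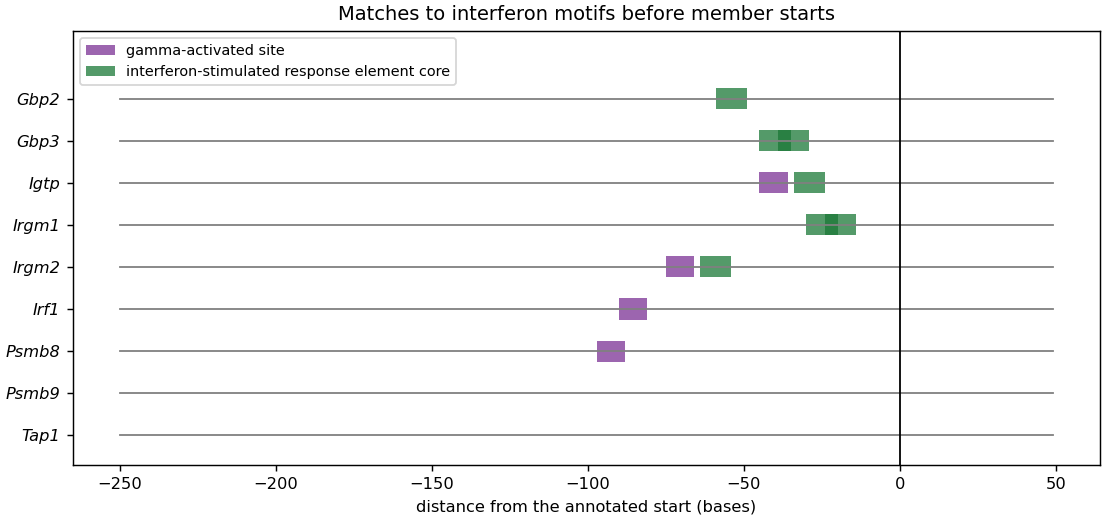
Positions of matches to 2 interferon motifs in the promoters of the 9 members with an entry, on an axis of bases from the annotated start (0) running from 250 bases before it to 50 after it. Green boxes (response element core) sit in the 5 GTPases Gbp2, Gbp3, Igtp, Irgm1 and Irgm2 and purple boxes (gamma-activated site) in Igtp, Irgm2, Irf1 and Psmb8; all lie within 100 bases before the start, and darker green marks overlapping matches.

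Every one of the 9 members with a probe set was above array background on all 11 arrays, each gene being read from its brightest probe set (by mean over the gland arrays). The background limit of an array, the highest signal among its nonspecific control probe sets, ran from 0.945 to 1.70. Of the 14 member probe sets, 12 passed this limit on all arrays. Arrays of one group correlated at 0.98 to 0.99 over all genes and arrays of different gland groups at 0.94 to 0.98. On RNA controls LG_eTreg 3 and LG_naive 1 had the highest 18S signals (6.69 and 6.63, other arrays 4.34 to 5.68), and LG_eTconv 1 had the widest gap between 3′ and 5′ actin probe sets (3.35, other arrays 1.53 to 2.86). Calls of members that are lost or gained without these 3 arrays are given with that value.

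The main pattern was less of Irf1 and of every member GTPase but Iigp1 in LG_eTconv than in the PD1- ICOS- cells of the gland. LG_eTreg group means lay between those of these groups for Irf1, Gbp2, Igtp, Irgm1 and Irgm2 and above both for Gbp3. In LG_eTconv against LG_naive, 0 members were higher and 6 of 9 lower at an adjusted p under 0.05, where 6.45% of all genes were higher and 7.02% lower. Those 6 were Irf1, Gbp2, Gbp3, Igtp, Irgm1 and Irgm2, each with no overlap between the groups (31.1% of all genes). In LG_eTreg against LG_naive, 1 member was higher (Gbp3; 6.2% of all genes), 2 were lower (Gbp2 and Igtp; 5.47% of all genes) and 5 did not overlap (27.1% of all genes). In LG_eTreg against LG_eTconv, 2 were higher (Gbp3 and Irf1; 2.94% of all genes), 0 were lower (2.76% of all genes) and 4 did not overlap (21.5% of all genes). The median member difference was −0.84 for LG_eTconv minus LG_naive, −0.28 for LG_eTreg minus LG_naive and 0.35 for LG_eTreg minus LG_eTconv, where the medians of all genes were −0.03, −0.02 and 0.01. At an unadjusted p under 0.05 in limma, 5 members were lower and 1 higher in LG_eTreg against LG_naive, 6 lower and 0 higher in LG_eTconv against LG_naive, and 5 higher and 0 lower in LG_eTreg against LG_eTconv. The share of all genes at an unadjusted p under 0.05 was not counted, so these counts cannot be set against it. The comparisons share arrays, so their counts are not independent.

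**Figure D2:**
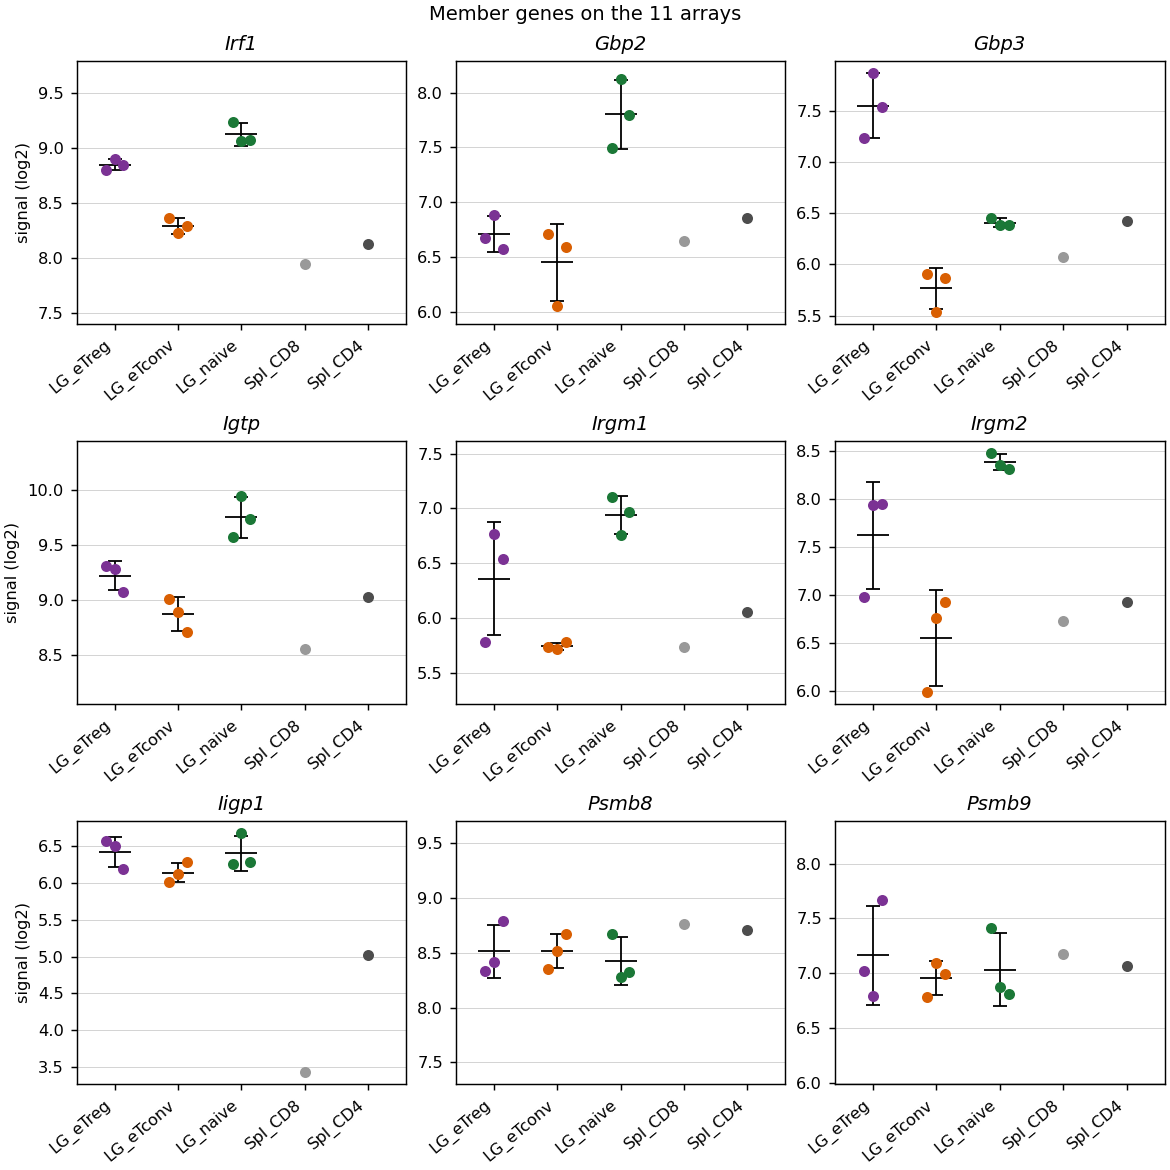
Log2 signal (vertical axis, a separate range in each panel) of the 9 members on every array, by group. Points are arrays, horizontal lines are means and bars are ± SD of the 3 arrays of a gland group. LG_eTconv is the lowest of the 3 gland groups for Irf1, Gbp2, Gbp3, Igtp, Irgm1 and Irgm2 on group means, and Psmb8 and Psmb9 overlap in the 3 gland groups.

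Irf1, the transcription factor that relays interferon gamma signals to later targets (chr11:53770014-53778374 in GRCm38.p6, as for the members below), had signals of 8.80, 8.90 and 8.85 in LG_eTreg, 8.36, 8.22 and 8.29 in LG_eTconv and 9.24, 9.06 and 9.07 in LG_naive. The 3 groups stood in separate bands with no overlap, LG_naive highest and LG_eTconv lowest, and the SD within a group was at most 0.10. The difference of LG_eTconv from LG_naive was −0.84 (SE 0.10, adjusted p = 0.000589), a 1.78-fold lower signal. LG_eTreg was above LG_eTconv by 0.56 (SE 0.10, adjusted p = 0.0111, or 0.0601 without the 3 arrays named above). The difference of LG_eTreg from LG_naive was −0.28 (adjusted p = 0.118) and did not pass the test. Spl_CD8 was at 7.95 and Spl_CD4 at 8.13, below all 9 gland arrays.

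Gbp2, a guanylate-binding protein of pathogen vacuoles (chr3:142620663-142638008), had signals of 6.67, 6.89 and 6.57 in LG_eTreg, 6.71, 6.05 and 6.59 in LG_eTconv and 7.49, 8.12 and 7.80 in LG_naive. All 6 effector arrays lay below all 3 LG_naive arrays, and the effector groups overlapped. The difference was −1.09 for LG_eTreg minus LG_naive (SE 0.22, adjusted p = 0.0121) and −1.35 for LG_eTconv minus LG_naive (adjusted p = 0.0035). A second probe set of Gbp2 gave −1.64 and −1.72 for the same comparisons, both called when every probe set was tested on its own (adjusted p = 0.0003 and 0.000186). Spl_CD8 (6.65) and Spl_CD4 (6.85) lay at the level of the effector arrays.

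Gbp3, which lies near Gbp2 on chromosome 3 and belongs to the same family (chr3:142560016-142573213), was the member that parted the effector groups most widely. It had signals of 7.24, 7.87 and 7.54 in LG_eTreg, 5.90, 5.53 and 5.86 in LG_eTconv and 6.46, 6.39 and 6.39 in LG_naive. The bands were separate and in a different order from those of Irf1, Gbp2, Igtp, Irgm1 and Irgm2, with LG_eTreg highest. LG_eTreg was higher than LG_eTconv by 1.79 (SE 0.17, adjusted p = 0.000468), or 3.45-fold, and higher than LG_naive by 1.14 (SE 0.17, adjusted p = 0.00302), or 2.21-fold. Both calls held under all 20 alternatives. LG_eTconv differed from LG_naive by −0.64 (SE 0.17, adjusted p = 0.0407). That call was lost in 10 of 20 alternatives (adjusted p 0.0222 to 0.159 over all of them, the highest without the 3 arrays named above), including without LG_eTreg 3, without any single LG_eTconv array and without any single LG_naive array. Gbp3 was at 6.08 in Spl_CD8 and 6.42 in Spl_CD4.

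Igtp, also known as Irgm3, is an immunity-related GTPase that regulates the loading of other GTPases onto vacuoles (chr11:58199556-58207592). Its signals were 9.31, 9.28 and 9.08 in LG_eTreg, 9.01, 8.89 and 8.71 in LG_eTconv and 9.58, 9.95 and 9.74 in LG_naive. The 3 groups did not overlap, in the order LG_naive, LG_eTreg, LG_eTconv. LG_eTconv differed from LG_naive by −0.88 (SE 0.14, adjusted p = 0.00288) and LG_eTreg from LG_naive by −0.53 (SE 0.14, adjusted p = 0.0395). The call for LG_eTreg was lost in 10 of 20 alternatives (adjusted p 0.0118 to 0.121 over all of them, and 0.0734 without the 3 arrays named above), including without any single LG_eTreg array and without LG_eTconv 2, LG_naive 2 or LG_naive 3. The difference between the effector groups, 0.35 (95% interval 0.04 to 0.66), was not called (adjusted p = 0.232). Spl_CD8 was at 8.55 and Spl_CD4 at 9.03.

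Irgm1, a regulator of the same GTPase family whose loss in mice leads to the death of CD4 T cells exposed to interferon gamma (chr11:48865245-48871420), had signals of 5.78, 6.76 and 6.54 in LG_eTreg, 5.73, 5.72 and 5.78 in LG_eTconv and 7.10, 6.76 and 6.97 in LG_naive. LG_eTconv was uniformly low and LG_naive uniformly high, while LG_eTreg 1 sat with LG_eTconv and the other LG_eTreg arrays near LG_naive. The difference of LG_eTconv from LG_naive was −1.20 (SE 0.23, adjusted p = 0.00961, or 0.103 without the 3 arrays named above). LG_eTreg exceeded LG_eTconv by 0.62, which was not called (adjusted p = 0.222) unless LG_eTreg 1 was left out (0.91, adjusted p = 0.0113). Spl_CD8 was at 5.74 and Spl_CD4 at 6.06.

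Irgm2, another regulator of the family next to Igtp on chromosome 11 (chr11:58214977-58222783), had signals of 6.98, 7.94 and 7.94 in LG_eTreg, 5.99, 6.76 and 6.93 in LG_eTconv and 8.48, 8.36 and 8.31 in LG_naive. It fell into 3 bands without overlap, although LG_eTreg 1 came within 0.1 of LG_eTconv 3. LG_eTconv differed from LG_naive by −1.83 (SE 0.31, adjusted p = 0.00511), a 3.55-fold lower signal and the widest difference of any member in that comparison. The difference between LG_eTreg and LG_eTconv, 1.06 (SE 0.31), was not called (adjusted p = 0.108) unless LG_eTreg 1 was left out (adjusted p = 0.0262). LG_eTreg 1 had an actin gap of 2.86 against 2.04 and 1.62 on the other LG_eTreg arrays, and LG_eTconv 1, the lowest array for Irgm2, had the widest gap of all. The part of RNA quality in these low values was not tested. Spl_CD8 was at 6.73 and Spl_CD4 at 6.93.

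Iigp1, an effector GTPase that coats parasite vacuoles (chr18:60373616-60392634), had signals of 6.57, 6.50 and 6.18 in LG_eTreg, 6.02, 6.12 and 6.29 in LG_eTconv and 6.25, 6.68 and 6.28 in LG_naive. All 3 gland groups overlapped, and none of the differences was called. The difference from LG_naive was 0.01 for LG_eTreg (95% interval −0.35 to 0.38) and −0.26 for LG_eTconv (−0.63 to 0.10). The spleen arrays stood apart, with 3.42 in Spl_CD8 and 5.02 in Spl_CD4, both below all 9 gland arrays. The second probe set of Iigp1 lay between 5.53 and 6.16 on the gland arrays, at 4.18 in Spl_CD8 and at 4.75 in Spl_CD4.

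**Figure D3:**
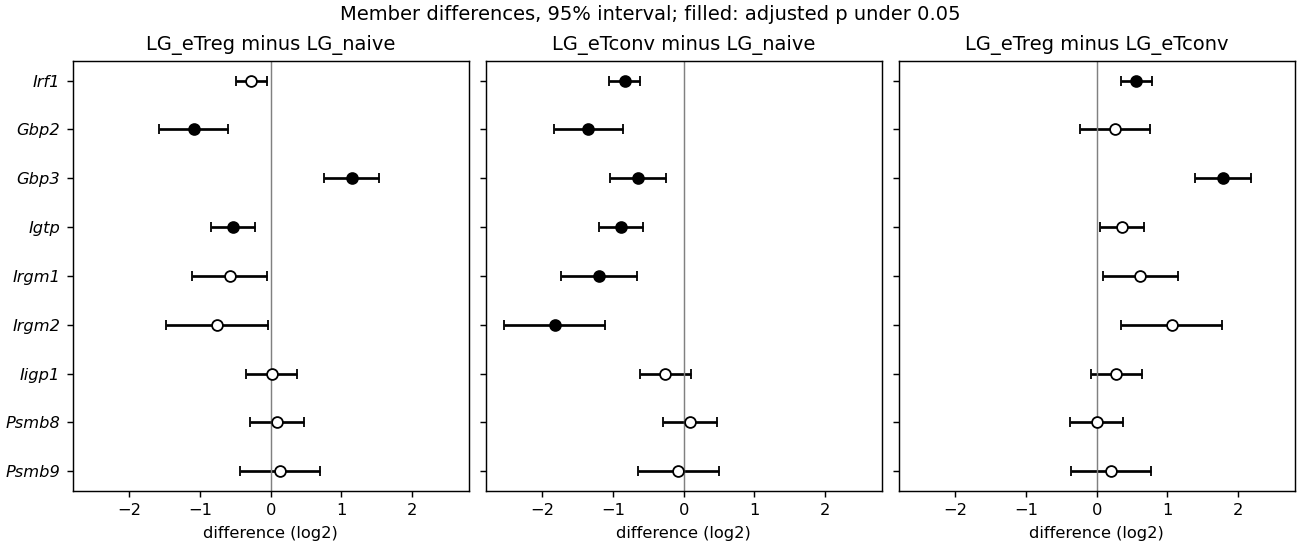
Log2 difference (horizontal axis) of each member in the 3 comparisons of gland groups, with 95% intervals; filled points have an adjusted p under 0.05. Irf1 and 5 of the GTPases lie below 0 for LG_eTconv minus LG_naive with filled points, Gbp3 alone is well above 0 for LG_eTreg minus LG_naive, and Psmb8 and Psmb9 cross 0 in all panels.

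The immunoproteasome subunits passed no test in any comparison. Psmb8, the chymotrypsin-like subunit (chr17:34198195-34201454), had signals of 8.34, 8.42 and 8.79 in LG_eTreg, 8.36, 8.52 and 8.67 in LG_eTconv and 8.67, 8.28 and 8.32 in LG_naive, with 8.76 in Spl_CD8 and 8.70 in Spl_CD4. Psmb9, which takes the place of Psmb6 (chr17:34182030-34187330), had signals of 7.03, 6.79 and 7.67 in LG_eTreg, 6.79, 7.09 and 6.997 in LG_eTconv and 7.42, 6.87 and 6.81 in LG_naive, with 7.17 in Spl_CD8 and 7.06 in Spl_CD4. The 3 gland groups overlapped for both genes. Both spleen arrays lay above all LG_eTconv and LG_naive arrays for Psmb8. The 95% intervals of LG_eTconv minus LG_naive were −0.29 to 0.47 for Psmb8 and −0.64 to 0.49 for Psmb9, so a halving of either lay outside its interval. The intervals of LG_eTreg minus LG_naive were −0.29 to 0.47 for Psmb8 and −0.44 to 0.70 for Psmb9. A second probe set of Psmb9 spanned 6.89 to 7.30 over the gland arrays. The remaining probe sets, 1 of Psmb8 and 1 of Psmb9, did not pass the background limit on all arrays.

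The highest Psmb9 signals of LG_eTreg and LG_naive came from LG_eTreg 3 and LG_naive 1, the arrays with the highest 18S signals. Psmb10, the third inducible catalytic subunit, was also highest there, at 7.72 on LG_eTreg 3 (other LG_eTreg arrays 6.72 and 6.76) and 7.96 on LG_naive 1 (other LG_naive arrays 7.39 and 7.28). This was not particular to inducible subunits. Summed linear signals of the 14 constitutive proteasome subunits were 2942 on LG_eTreg 3 (other LG_eTreg arrays 2288 and 2371). On LG_naive 1 that sum was 2524 (other LG_naive arrays 2020 and 2039). Psmb10 was not called in any comparison, but without the 3 arrays it was lower in LG_eTreg than in LG_naive (adjusted p = 0.0331, against 0.389 with all arrays). The part of RNA quality was not tested.

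Few other genes of antigen processing passed the test. Of 13 other MHC class I processing genes with a probe set, 0 were called in either effector group against LG_naive in limma. At an unadjusted p under 0.05 these counts were 0 higher and 0 lower in LG_eTreg and 0 higher and 4 lower in LG_eTconv. The share of all genes at that level was not counted. In LG_eTreg against LG_eTconv 1 was higher, Tapbpl, a peptide editor of MHC class I (5.72 ± 0.22 in LG_eTreg, 4.78 ± 0.35 in LG_eTconv; SD, n = 3 each; adjusted p = 0.0367), and that call was lost in 10 of 20 alternatives. The activator subunits Psme1 and Psme2 and the class I transactivator Nlrc5 were not called. Nlrc5 averaged 9.20 ± 0.15 in LG_eTreg, 9.11 ± 0.10 in LG_eTconv and 9.10 ± 0.11 in LG_naive. Of 14 constitutive proteasome subunits, Psma6 was higher in both effector groups (0.41 in LG_eTreg, 0.49 in LG_eTconv) and Psmb7 in LG_eTreg (0.67, adjusted p = 0.0276). The adjusted p of Psma6 was 0.0438 in LG_eTreg, lost in 15 of 20 alternatives, and 0.0178 in LG_eTconv, lost in 4. The call of Psmb7 was lost in 9 of 20. The constitutive catalytic subunits Psmb5 and Psmb6, the counterparts of Psmb8 and Psmb9, were not called.

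Other interferon-inducible GTPases with a probe set, 9 of the 16 listed, split by gene. In LG_eTconv against LG_naive 1 was higher and 4 were lower, with a list median of −0.55. The 4 were Tgtp1 (−1.04), Gbp7 (−0.66), Ifi47 (−0.58) and Gbp10 (−0.55), all GTPases of the same families as the members. The higher one was Gbp2b, the mouse Gbp1, at 4.66 ± 0.40 in LG_eTconv against 2.68 ± 0.20 in LG_naive (adjusted p = 0.000395). In LG_eTreg against LG_naive, the antiviral GTPases Mx1 (2.49) and Mx2 (0.94) were higher and Tgtp1 (−0.59) was lower. In LG_eTreg against LG_eTconv, Mx1 (1.74), Mx2 (1.52), Gbp7 (0.81) and Gbp10 (0.71) were higher and Gbp2b (−2.65) was lower. Without the 3 arrays picked on RNA controls, Tgtp1 in LG_eTreg against LG_naive and Mx1 and Mx2 in LG_eTreg against LG_eTconv were no longer called (adjusted p 0.0507, 0.0549 and 0.0510), and Mx2 in LG_eTreg against LG_naive was lost in 7 of 20 alternatives. Gbp2b thus had signals of 2.19, 2.06 and 1.78 in LG_eTreg, 4.84, 4.21 and 4.94 in LG_eTconv and 2.44, 2.78 and 2.81 in LG_naive, the reverse of the order of Gbp3 between the effector groups. Gbp4, Gbp8, Mx1 and Mx2 were not called in LG_eTconv against LG_naive. Gbp4, Gbp8 and Gbp10 were chosen for mention after their values were seen.

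**Figure D4:**
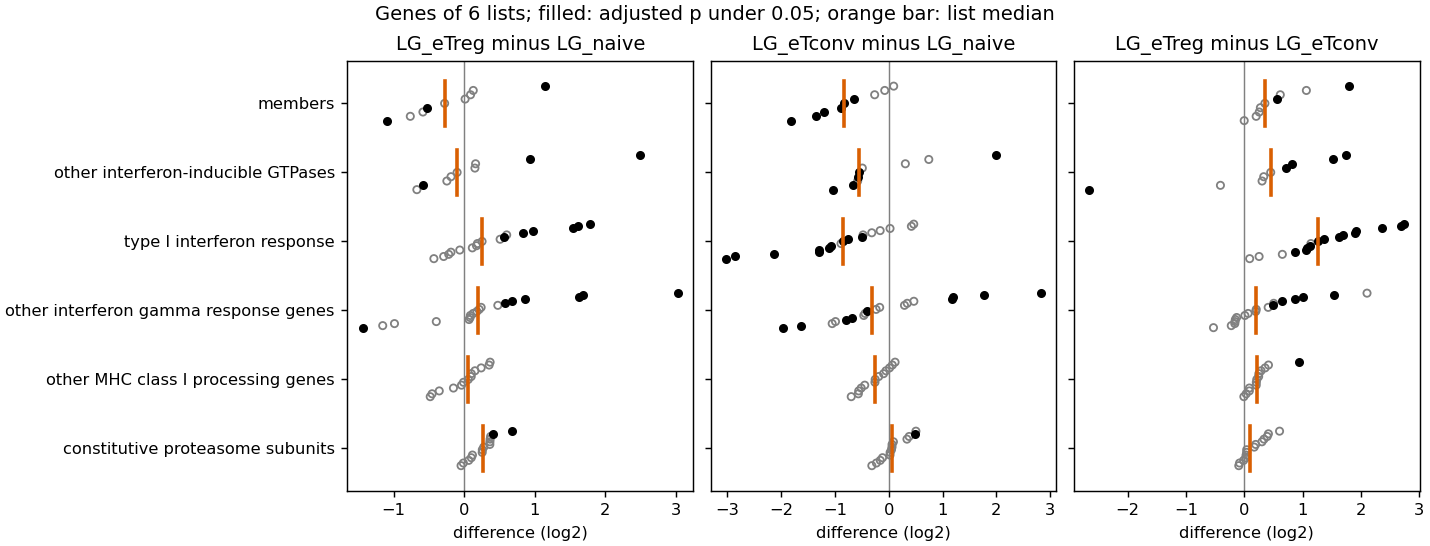
Log2 difference (horizontal axis, a separate range in each panel) of every gene of 6 lists in the 3 comparisons; each point is a gene, filled where the adjusted p is under 0.05, and orange bars are list medians. The members' median lies at −0.28, −0.84 and 0.35 from left to right; MHC class I processing genes and constitutive proteasome subunits lie between −0.70 and 0.94.

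In LG_eTconv against LG_naive, Ifng and Ifngr1 differed by more than any member did. Ifng, the gene of interferon gamma, had signals of 8.57, 8.97 and 8.71 in LG_eTreg, 9.34, 9.35 and 9.42 in LG_eTconv and 4.70, 4.45 and 4.17 in LG_naive. Both effector groups were far above LG_naive, by 4.31 (adjusted p = 2.99e-06) in LG_eTreg and 4.93 (adjusted p = 8.34e-07) in LG_eTconv. LG_eTreg minus LG_eTconv was −0.62 for Ifng and was not called (adjusted p = 0.0627). The 6 members that were lower in LG_eTconv were thus lower in cells with a higher Ifng signal. Ifngr1, the ligand-binding receptor chain, had signals of 7.54, 7.76 and 7.74 in LG_eTreg, 3.98, 4.14 and 3.48 in LG_eTconv and 7.27, 7.03 and 7.27 in LG_naive. LG_eTconv alone was low, with a difference of −3.32 from LG_naive (SE 0.17, adjusted p = 7.58e-06), and LG_eTreg exceeded it by 3.81 (adjusted p = 8.8e-06). The difference between LG_eTreg and LG_naive, 0.49, was not called (adjusted p = 0.125). Spl_CD8 and Spl_CD4 lay at 6.09 and 5.99.

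Ifngr2, the signalling chain of the receptor, was lower in both effector groups, at 1.68, 2.16 and 1.51 in LG_eTreg and 1.66, 2.07 and 1.83 in LG_eTconv, against 3.72, 2.87 and 3.07 in LG_naive. The differences were −1.44 for LG_eTreg (adjusted p = 0.00661) and −1.37 for LG_eTconv (adjusted p = 0.00733). Its second probe set lay at 0.94 or below on all 6 effector arrays and between 3.77 and 5.12 in LG_naive. Jak2, a receptor kinase, averaged 8.72 ± 0.11 in LG_eTreg, 9.16 ± 0.03 in LG_eTconv and 8.47 ± 0.02 in LG_naive, and the difference of LG_eTconv from LG_naive was 0.69 (adjusted p = 0.00137). Jak1 was not called by its brightest probe set, while its second probe set was called lower in both effector groups, with differences from LG_naive of −0.61 in LG_eTreg and −0.66 in LG_eTconv (adjusted p = 0.0107 and 0.00636, each probe set tested on its own). The feedback inhibitor Socs1 lay near background, with group means of 1.48 in LG_eTreg, 1.59 in LG_eTconv and 1.60 in LG_naive. Of the 10 signalling genes with a probe set, 2 were higher and 2 lower in LG_eTconv against LG_naive, and 1 was higher and 1 lower in each of the other comparisons.

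**Figure D5:**
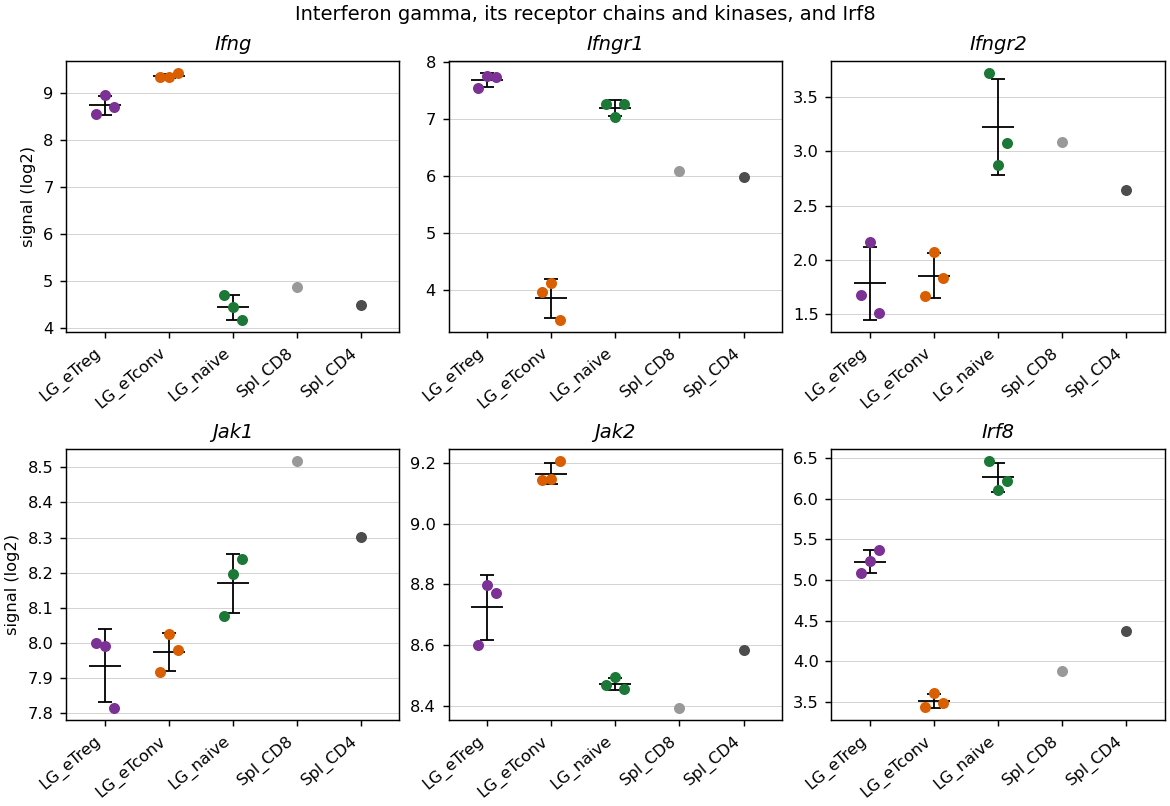
Log2 signal (vertical axis, a separate range in each panel) of Ifng, the receptor chains Ifngr1 and Ifngr2, the kinases Jak1 and Jak2, and Irf8 on every array; horizontal lines are means and bars are ± SD of 3 arrays. Ifng is high in both effector groups, Ifngr1 is low in LG_eTconv only among the gland groups, and Ifngr2 is low in both effector groups.

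Among the other interferon regulatory factors with a probe set (8 genes), Irf8 had the profile of Irf1 with wider steps. Its signals were 5.08, 5.23 and 5.36 in LG_eTreg, 3.44, 3.61 and 3.49 in LG_eTconv and 6.45, 6.11 and 6.21 in LG_naive, without overlap, and all 3 differences were called. Its second probe set was called only for LG_eTconv minus LG_naive (−1.94, adjusted p = 0.00745), with −0.88 for LG_eTreg minus LG_naive (adjusted p = 0.184) and 1.05 for LG_eTreg minus LG_eTconv (adjusted p = 0.172). Irf8 is also a factor of dendritic cells and B cells, whose markers are given below. Irf7, the main factor of the type I interferon response, differed by −1.26 between LG_eTconv and LG_naive (adjusted p = 0.00935). Of 18 other interferon gamma response genes, 6 were higher and 1 lower in LG_eTreg and 4 were higher and 5 lower in LG_eTconv, each against LG_naive. The chemokine gene Cxcl10 was among the higher genes in both, at 7.99 ± 0.26 in LG_eTreg, 7.79 ± 0.23 in LG_eTconv and 4.97 ± 0.50 in LG_naive. The MHC class II chaperone Cd74 was among the lower genes in both, at 7.64 ± 0.38, 7.44 ± 0.33 and 9.07 ± 0.28 in the same order of groups. Of 17 genes of the type I interferon response, 0 were higher and 10 lower in LG_eTconv against LG_naive, 6 were higher and 0 lower in LG_eTreg against LG_naive, and 13 were higher and 0 lower in LG_eTreg against LG_eTconv.

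Markers of other cells moved with the comparisons against LG_naive. Summed linear signals of 13 monocyte and macrophage markers ran from 740 to 899 in LG_eTreg, 733 to 797 in LG_eTconv and 1404 to 1748 in LG_naive, and 7 of the 13 were called lower in each effector group. Sums of 9 dendritic cell markers ran from 227 to 258, 206 to 280 and 613 to 935 in that order, with 6 of 9 called lower in each effector group. For 8 B and plasma cell markers the sums were 87.0 to 162 in LG_eTreg, 175 to 273 in LG_eTconv and 334 to 394 in LG_naive, with 6 and 1 of 8 called lower. For 12 gland epithelium markers they were 1107 to 1263, 981 to 1176 and 1600 to 2146, with 3 and 4 of 12 called lower. The dendritic cell marker Zbtb46 went the other way, higher than in LG_naive by 1.27 in LG_eTreg (adjusted p = 0.0341) and by 0.88 in LG_eTconv, which was not called. Sums of 8 T cell markers ran from 3001 to 3411 in LG_eTreg, 2960 to 3416 in LG_eTconv and 2568 to 2622 in LG_naive. Of these, 3 and 4 were called higher. Sums of 10 fibroblast, endothelium and erythrocyte markers were 24.6 to 41.1, 35.5 to 61.9 and 78.5 to 92.7, with 3 and 2 called lower. LG_naive sums of 10 CD8 T and natural killer cell markers were 193 to 202, above both effector groups. Of the 10, 1 was called higher and 1 lower in LG_eTreg, 2 and 2 in LG_eTconv. On all LG_naive arrays, 2 of the 13 macrophage markers (Csf1r and Itgam), 1 of the 9 dendritic cell markers (Xcr1) and 2 of the 8 B cell markers (Pax5 and Ighm) were at background. The others were above it on at least 1 LG_naive array, among them Adgre1, Cd14, Lyz2 and Cd68, Itgax, Flt3 and H2-Aa, and Ms4a1, Cd22, Cd79a and Cd79b. Pax5 and Ighm were also at background on both spleen arrays. Such cells also express the members, and the part of such cells in the LG_naive levels of the members was not tested. The sums of macrophage, dendritic cell and epithelium markers overlapped between LG_eTreg and LG_eTconv, the comparison in which Gbp3 and Irf1 were called. The sums of B and plasma cell markers did not, and neither did those of 10 CD8 T and natural killer cell markers, at 92.2 to 119 in LG_eTreg and 139 to 170 in LG_eTconv. Single markers called there were Epcam (3.06), Krt18 (1.42), Cd14 (1.66) and Gzma (2.76), higher in LG_eTreg, and Blnk (−1.54), Cd22 (−1.57), Tcf4 (−0.91), Cd8a (−1.31), Pecam1 (−1.63) and Cd4 (−0.55), lower in it. Their part in that comparison was not tested. In such bulk samples fewer cells of a type and less RNA per cell cannot be told apart.

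Against the spleen there was 1 array per population and no test, and a member was counted where its log2 difference from Spl_CD4 was at least 1 with all 3 arrays of a gland group on that side. In LG_eTreg, Gbp3 (1.13) and Iigp1 (1.40) were counted higher, where 6.44% of all genes were. In LG_eTconv, Iigp1 (1.12) was counted higher, where 6.56% were. In LG_naive, Irgm2 (1.45) and Iigp1 (1.38) were counted, where 4.67% were, and Irf1 (0.998), Gbp2 (0.95) and Irgm1 (0.89) fell just short. Spl_CD8 was lower than Spl_CD4 by at least 1 for Iigp1 (−1.60), where 4.5% of all genes were. The second probe set of Iigp1, at 4.18 in Spl_CD8 and 4.75 in Spl_CD4, did not reach that difference. In LG_eTconv, at 5.72, 5.53 and 5.57, this probe set also fell short of 1 above Spl_CD4. In LG_eTreg and LG_naive it did reach 1. No member of a gland group was lower than Spl_CD4 by 1 or more, and the share of all genes that were was not counted. The median member difference from Spl_CD4 was 0.30 for LG_eTreg, −0.19 for LG_eTconv and 0.89 for LG_naive. Markers of other cells moved with these comparisons. Summed signals of gland epithelium markers ran from 981 to 2146 over the gland arrays, against 64.3 in Spl_CD8 and 65.6 in Spl_CD4. Those of B and plasma cell markers ran from 87.0 to 394, against 1110 in Spl_CD8 and 660 in Spl_CD4, and those of 10 fibroblast, endothelium and erythrocyte markers from 24.6 to 92.7, against 435 in Spl_CD8 and 499 in Spl_CD4. The part of these cells was not tested.

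The members did not move as one block over the 9 gland arrays. Among their 36 pairs, Pearson's r ran from −0.51 (Igtp with Psmb8) to 0.94 (Irgm1 with Irgm2), with a median of 0.42, and 29 pairs were above 0. Gbp2 with Igtp (0.92) and Irgm1 with Irf1 (0.90) were close to the upper end, and Gbp2 with Gbp3 reached 0.06. These correlations describe arrays that share group differences and RNA quality. The mean of the members, each centred on its own mean over the gland arrays, was −0.07, 0.23 and 0.20 in LG_eTreg, −0.50, −0.49 and −0.36 in LG_eTconv and 0.37, 0.35 and 0.26 in LG_naive. Among 3896 genes that varied over these arrays (SD of at least 0.5), the genes most like this profile were Atp10d (r = 0.99), Bcl2l11 (0.98), Ifi204 (0.98), Ctsc (0.98) and Etv3 (0.97), given as a description over 9 arrays. Bcl2l11 encodes the death factor Bim and Ifi204 an interferon-inducible DNA sensor. Bcl2l11 had signals of 7.50, 7.91 and 7.73 in LG_eTreg, 6.55, 6.26 and 6.84 in LG_eTconv and 8.39, 8.48 and 8.32 in LG_naive.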

How the data were processed

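RNA of 9 gland and 2 spleen T cell samples was hybridised to perfect-match arrays after amplification with NuGEN Ovation, per the labels' protocols. Per the submitters' processing notes, the authors used Partek and RMA; versions are not given in the sources used here. The deposited table was read as log2 signal, a base inferred from the use of RMA. The number of arrays limits the precision. RNA integrity numbers were above 9.1 except for 1 sample with 7.8 that the labels do not tie to a group.

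Of 45141 probe sets, 104 controls were left out. Of the rest, 28898 had exactly 1 gene symbol in the platform annotation, 551 several and 15588 none listed. Each of the 17097 genes was represented by its brightest probe set, judged by the mean over the gland arrays, with no filter on dim genes. Means per group over the 9 gland arrays (6 residual degrees of freedom) were fitted with limma 3.58.1 in R 4.3.3, moderated by empirical Bayes. Tests were two-sided, with Benjamini-Hochberg adjustment over all genes of a comparison and calls at an adjusted p under 0.05. The fit was tested on simulated data, where it called 55 to 61% of log2 shifts of 1 and 87 to 92% of shifts of 2. False calls numbered 8 to 11 among 16897 unchanged genes per comparison. A true difference near 1 could thus go uncalled. Members and lists were chosen with earlier results of these data known. Named genes were all members, up to 4 called genes per list and comparison with the largest differences, and fixed genes of the pathway. The alternatives covered the replicate block, choice of probe set, dim genes, normalization, a floor at background, 2-group fits, array weights, empirical Bayes settings and leaving out each array. One was chosen after seeing the data: the fit without LG_eTreg 3, LG_eTconv 1 and LG_naive 1, picked on RNA controls. Replicate numbers are not said to mark the same mice, so the main fit did not use them as pairs. Same-numbered arrays correlated at −0.10 to 0.28 in their deviations from the group means. Between LG_eTreg and LG_eTconv each array correlated best with its own number (0.28, 0.08 and 0.17).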

Additional observations from a re-analysis of the deposited data

Results flagged for a closer look

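Only the members and the fixed genes of the pathway were searched here. Other listed genes were also called between the effector groups, among them Irf8 and Gbp2b, as given above. For 2 members and 2 of the fixed genes, the difference from LG_naive was not the same in LG_eTreg and LG_eTconv. In each case the direct contrast of LG_eTreg with LG_eTconv, which equals the gap between their differences from LG_naive, passed the test in limma. For Gbp3 the contrast was 1.79 (1.14 in LG_eTreg and −0.64 in LG_eTconv against LG_naive), and the differences from LG_naive had opposite signs. For Irf1 it was 0.56 (−0.28 and −0.84), and that call was lost without the 3 arrays picked on RNA controls (adjusted p = 0.0601). For Ifngr1 it was 3.81 (0.49 and −3.32). For Jak2 it was −0.44 (0.25 and 0.69), and that call was lost in 12 of 20 alternatives, although a second Jak2 probe set gave −1.06 (adjusted p = 0.00664 with every probe set tested).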

How the results depend on the processing

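The 9 members were compared in 3 comparisons under 20 alternatives each, which gave 540 values: 515 stayed on the same side of the threshold, 22 lost a call, 3 gained one and 0 changed sign when called. Uncalled values of Iigp1, Psmb8 and Psmb9 changed sign in 19 of the 540. The calls of Gbp3 in LG_eTconv and of Igtp in LG_eTreg, each against LG_naive, were lost in 10 of 20. Irf1 in LG_eTreg against LG_naive was gained (adjusted p = 0.0432) with values below background set to the limit. Members called lower in LG_eTreg against LG_naive numbered 2, and 1 with the replicate block, with only the 2 groups compared and without the 3 arrays picked on RNA controls, and 1 to 2 when 1 array was left out. Members called higher in LG_eTreg against LG_eTconv numbered 2, 1 without those 3 arrays, and 2 to 4 when 1 array was left out, with 4 without LG_eTreg 1. Genes called higher in that comparison ranged from 330 (without LG_eTconv 2) to 506 when 1 array was left out, against 502 on all arrays. Same-numbered arrays correlated at −0.10 to 0.28 in their deviations from the group means and others at −0.23 to 0.19. Each array correlated best with its own number between LG_eTreg and LG_eTconv, but not in every comparison with LG_naive. With the block, calls in LG_eTreg against LG_naive were 1028 higher and 901 lower, against 1060 and 935 without it, and Gbp3 in LG_eTconv against LG_naive had an adjusted p of 0.0858. The cause of these changes was not tested, beyond the fewer arrays in some fits. With 3 arrays per group and 1 per spleen population, precision is limited by array number, and dim probe sets such as Socs1 and Ifngr2 lie close to background.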
